A study of Mus musculus with 10 samples.

Results

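The genes of the integrated stress response were followed in male mouse embryonic stem cells (mESCs) kept under 2 culture methods. The set held 40 of the 25965 features of the deposited table, and its members were fixed by gene symbol as factors of the ATF4 pathway, amino acid enzymes and carriers, and stress effectors, with the aminoacyl-tRNA synthetases left out. RNA-seq had been run on 2 independent male C57/Bl6 lines, which were derived under Keniry2022 conditions, split at the start of the experiment (p0) and cultured for 10 and 20 passages (p10 and p20) by either method. Keniry2022, labelled New or Off, is the study's own method, with colonies in suspension and a passage every day. Mulas2019, labelled Old or On, is the reference method, on gelatin-coated tissue culture plates, with passaging every other day, a lower plating density and smaller media volumes. Every group received the same 2i/LIF medium, which holds mESCs in the naive state and contains non-essential amino acids, glutamine supplement, beta-mercaptoethanol and the same antibiotics and antifungal. Attachment, density, interval and volume changed together, so their parts cannot be told apart. Each of the 5 groups (p0, p10 Keniry2022, p20 Keniry2022, p10 Mulas2019 and p20 Mulas2019) had 2 libraries, 1 from each line, and p20 Keniry2022 and p10 Mulas2019 were matched in days of culture. The samples were bulk RNA, so a change in the share of cells that express a gene and a change in the RNA per cell cannot be told apart.

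In the integrated stress response, kinases that sense amino acid shortage, misfolded protein in the endoplasmic reticulum, viral RNA or haem loss phosphorylate the translation factor eIF2. Phosphorylated eIF2 blocks its exchange factor eIF2B, which lowers translation in general while the mRNA of the transcription factor ATF4 is translated more. ATF4 acts with C/EBP and other bZIP partners on genes of amino acid synthesis and import, and on regulators such as CHOP (Ddit3) and TRIB3, some of which feed back on the pathway. Much of its control is therefore on protein, which RNA-seq does not measure.

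Library totals were 24053996 to 30236823 reads. Naive markers (12 of 12 tested) lay between 4.73 and 11.58 log2 RPKM in every library. Their summed level was 4014 to 5657 RPKM at p0, 3327 to 3546 under Keniry2022 and 3080 to 3235 under Mulas2019, and at p10 Klf4 was called higher and Pou5f1, Zfp42, Nanog and Dppa5a lower under Mulas2019. None of the 8 fibroblast feeder or 6 primitive endoderm markers passed the filter, with 75 to 205 and 189 to 294 reads per library in sum. Of 6 trophoblast markers, Tfap2c and Eomes passed. The summed level of that list was 21.8 to 27.2 RPKM in the p0 and Keniry2022 libraries and 28.4 to 35.5 RPKM under Mulas2019, with 2 to 30 reads of Cdx2 and 0 to 8 of Elf5, its defining factors, in any library. The part of these markers in the results was not tested. The p0 libraries stood apart as a pair, since their log2 values differed with an SD of 0.611 across features, against 0.230 to 0.265 in the other groups. Summed reads of 4 Y-linked genes (Ddx3y, Eif2s3y, Kdm5d and Uty) separated the lines. They were 13 to 132 in replicate 1 and 4578 to 8140 in replicate 2 of 4 groups. In the library labelled p20 Keniry2022 replicate 1 they were 6659, and in replicate 2 they were 48, so the numbers of this group appeared crossed against the line. Both libraries belong to the same group, so the unpaired comparisons do not depend on their order. The study reports that a line lost its Y chromosome during derivation, before the culture methods were applied. Y-linked reads were already low in replicate 1 at p0, at 132 against 8140 in replicate 2. The lines therefore appear to differ in the Y chromosome as well, and the part of this in the results was not tested. Of the 4 Y-linked genes, Eif2s3y encodes a subunit of eIF2 and was not on the eIF2 list used below.

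All comparisons of the methods are given as Mulas2019 minus Keniry2022 in log2 RPKM, and limma's moderated test was applied to all features with log2 RPKM above 0 in at least 50% of the libraries compared. A feature was called at a Benjamini-Hochberg adjusted p under 0.05. At p10, 33 of the 39 members tested were higher under Mulas2019 and 1, Slc7a3, was lower. The background was wide: of 11654 features tested at p10, 48.3% were called, with 23.5% higher and 24.8% lower. The median difference of the members was 0.60, against -0.0041 over all features tested. The 6 largest differences at p10 were those of Vldlr (3.54-fold), Stc2 (2.78-fold), Cebpb (2.64-fold), Ddit4 (2.53-fold), Aldh1l2 (2.39-fold) and Atf5 (2.31-fold). At p20, 28 members were higher and 1 was lower, against 18.2% and 18.6% of all features, and the median was 0.44. Across both passages, 31 members had all 4 Mulas2019 libraries above all 4 Keniry2022 libraries, an arrangement seen in 23.4% of features tested, and Slc7a3 had them all below, as did 23.1%. The 4 libraries of a method are 2 lines at 2 passages, not 4 derivations. With the passages pooled by method, 33 members were called higher and 1 lower, beside 51.5% of all features. Vldlr passed the filter with 2 of its 4 Keniry2022 values above 0, and every other tested member was above 0 in all 8 of these libraries.

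The number of calls depended on the model, while the differences themselves were the same. With p0, whose libraries differed most, as a group of its own, 24 members (23 higher, 1 lower) were called at p10 beside 8.53% of all features, and 12 (11 higher, 1 lower) at p20 beside 2.15%. The 11 genes that stayed higher at p20 were Atf3, Atf5, Ddit3, Jdp2, Nupr1, Ddit4, Stc2, Aldh18a1, Slc1a4, Slc1a5 and Slc6a9. A replicate block was also fitted with the numbers of p20 Keniry2022 crossed, as the Y-linked reads have them. It called 33 members at p20 in place of 29, beside 4378 of 11654 features in place of 4280. The 4 added were Psat1 (adjusted p = 0.0444), Xpot (0.0419) and Slc7a1 (0.0301), higher, and Eif4ebp1 (0.0389), lower.

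**Figure D1:**
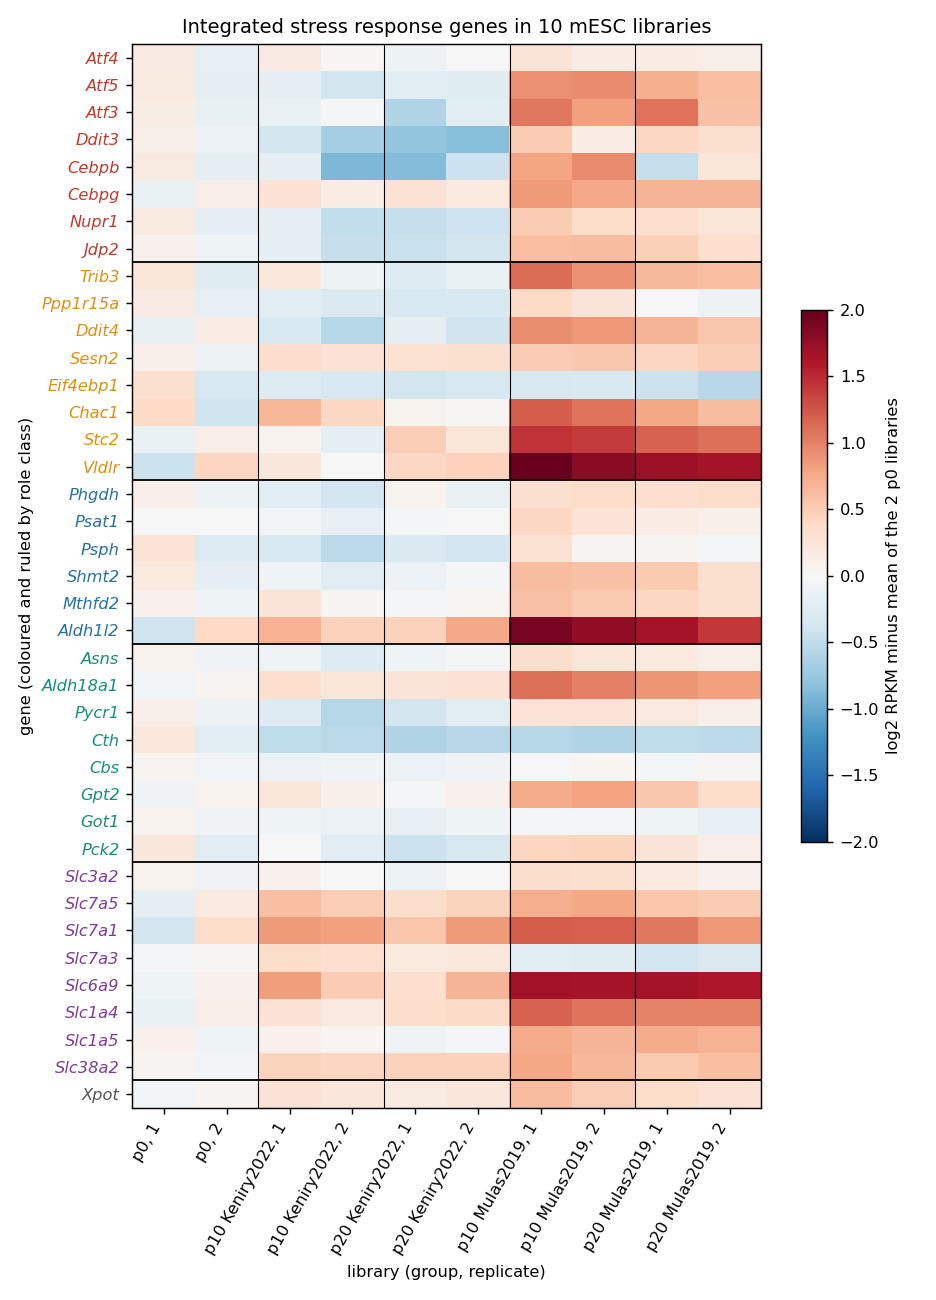
Log2 RPKM of the 39 members tested in each of the 10 libraries (columns), as the difference from the mean of the p0 libraries; rows are coloured and ruled by role class, red is higher and blue lower than p0, and the scale ends at 2 in each direction. The 4 Mulas2019 columns are red for most rows, at a median of 0.34 to 0.61 per library. The 4 Keniry2022 columns have a median of -0.08 to 0.08, which joins classes on both sides of p0. Under Keniry2022 the carriers had a median of 0.39 at p10 and 0.38 at p20. The transcription factors had medians of -0.31 and -0.40, with no member of either class called.

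To show sequence that members with a shared direction have in common, RefSeq promoter windows (250 bases before to 50 bases after a start site, GRCm38.p6) were searched on both strands for TGATGNAA, the letters of the composite C/EBP-ATF element. It was the only motif searched. A window was found for 34 of the 40 members, and 12 of these genes (35.3%) held the motif, against 1219 of 27025 genes with a window (4.51%) and 3.97% of 32851 windows. Several members are textbook ATF4 targets known by this element, so the count is not independent of how the set was composed. Of the genes described below library by library, 4 held it. Their windows are printed 5′ to 3′ on the strand of the gene, with the match in capitals (TTGCATCA is the element read on the opposite strand).
Vldlr promoter, chr19:27216770-27217069, plus strand: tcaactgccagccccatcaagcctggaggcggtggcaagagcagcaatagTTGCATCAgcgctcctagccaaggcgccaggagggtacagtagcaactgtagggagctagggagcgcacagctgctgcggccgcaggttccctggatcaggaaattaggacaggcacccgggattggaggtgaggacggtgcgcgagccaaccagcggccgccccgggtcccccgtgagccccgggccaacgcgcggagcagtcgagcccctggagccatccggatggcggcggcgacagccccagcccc
Atf3 promoter, chr1:191183284-191183583, minus strand: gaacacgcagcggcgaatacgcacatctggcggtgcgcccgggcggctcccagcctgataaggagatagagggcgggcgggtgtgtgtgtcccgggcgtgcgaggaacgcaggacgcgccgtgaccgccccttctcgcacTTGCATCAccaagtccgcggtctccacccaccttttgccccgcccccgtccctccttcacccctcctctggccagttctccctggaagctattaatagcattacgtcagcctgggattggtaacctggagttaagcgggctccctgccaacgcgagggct
Slc1a4 promoter, chr11:20332664-20332963, minus strand: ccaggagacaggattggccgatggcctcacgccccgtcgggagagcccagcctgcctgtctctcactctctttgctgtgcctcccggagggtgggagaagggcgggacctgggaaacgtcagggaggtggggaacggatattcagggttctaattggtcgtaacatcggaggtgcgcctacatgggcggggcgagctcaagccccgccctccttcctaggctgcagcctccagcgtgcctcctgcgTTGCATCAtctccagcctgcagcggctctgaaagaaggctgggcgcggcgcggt
Pycr1 promoter, chr11:120643699-120643998, minus strand: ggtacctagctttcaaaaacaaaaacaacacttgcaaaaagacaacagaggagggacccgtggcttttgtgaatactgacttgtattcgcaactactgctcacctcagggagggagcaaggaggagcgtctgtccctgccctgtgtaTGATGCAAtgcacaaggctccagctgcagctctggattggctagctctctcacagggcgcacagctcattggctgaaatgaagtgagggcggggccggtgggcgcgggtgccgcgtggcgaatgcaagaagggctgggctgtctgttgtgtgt
In Vldlr, which encodes a receptor for lipoproteins and reelin, the match began at position -200 from the later of 2 listed start sites, and in Atf3 at -110 from its start. In Slc1a4 it began at -4 and ran across the start site, and in Pycr1 it began at -103. Other members with a match were Nupr1, Jdp2, Trib3, Chac1, Asns, Got1, Pck2 and Slc7a11, of which Slc7a11 held 2. A match describes letters only: Got1, which carries one, was not called at either passage, while Atf5, Stc2 and Ddit4 have none in these windows.

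The transcription factors of the pathway were higher under Mulas2019, with Atf4 as the member that differed least. The class had 7 of 8 members higher under Mulas2019 at each passage, with a median difference of 0.90 at p10 and 0.78 at p20. Atf4 (chr15:80255184-80257540, plus strand, mm10 as all gene positions here) stood at 7.81 and 7.48 log2 RPKM at p0, 7.82 and 7.67 at p10 and 7.55 and 7.63 at p20 under Keniry2022, and 7.91 and 7.79 at p10 and 7.80 and 7.77 at p20 under Mulas2019. It had 8298 to 11523 reads and the highest RPKM of the class, and the libraries of the methods overlapped. Its difference was 0.11 at p10 (95% interval -0.03 to 0.25, adjusted p = 0.181) and 0.19 (SE 0.061, adjusted p = 0.0401) at p20. The p20 call was lost in the model with p0, under median centring, without the filter, and when any 1 of the 4 p20 libraries was left out, and Atf4 was called at p10 after quantile normalisation.

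Atf5 (chr7:44812257-44816658, minus strand), a bZIP factor under the same kind of translational control, showed a clear separation. Its values were 4.37 and 4.02 log2 RPKM at p0, 4.01 and 3.82 at p10 and 3.97 and 3.95 at p20 under Keniry2022, and 5.11 and 5.14 at p10 and 4.91 and 4.80 at p20 under Mulas2019. No Mulas2019 library fell within the range of the others. The difference was 1.21 (SE 0.067, adjusted p = 7.36e-05) at p10 and 0.89 (SE 0.067, adjusted p = 0.000418) at p20. Exons of Atf5 overlap those of Nup62 and Il4i1 on the opposite strand over 164 bases, and the strand setting of the counting is not given in the sources used here.

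Atf3 (chr1:191170296-191183340, minus strand), a stress-induced bZIP factor, was among the lowest members, with 62 to 199 reads. It stood at 0.92 and 0.61 log2 RPKM at p0, 0.63 and 0.75 at p10 and 0.16 and 0.56 at p20 under Keniry2022, and 1.82 and 1.58 at p10 and 1.86 and 1.35 at p20 under Mulas2019. The 4 Mulas2019 libraries were the 4 highest of the 10. The difference was 1.01 (SE 0.19, adjusted p = 0.00359) at p10 and 1.25 (SE 0.19, adjusted p = 0.00267) at p20.

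Cebpb (chr2:167688915-167690418, plus strand), a C/EBP partner of ATF4, had 82 to 310 reads and a wide spread between libraries. Its values were 2.0 and 1.65 log2 RPKM at p0, 1.65 and 0.93 at p10 and 0.96 and 1.40 at p20 under Keniry2022, and 2.63 and 2.77 at p10 and 1.35 and 2.07 at p20 under Mulas2019. The p10 Mulas2019 libraries were the highest, whereas at p20 a Mulas2019 library lay within the Keniry2022 range. The difference was 1.40 (SE 0.28, adjusted p = 0.00452) at p10 and 0.53 at p20, where it was not called (95% interval -0.12 to 1.18, adjusted p = 0.175). Its exons share 312 bases with Tmem189 on the other strand.

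The remaining factors were higher at both passages. Ddit3, which encodes CHOP, differed by 0.85 at p10 and 1.19 at p20, and its 2.70 to 3.18 log2 RPKM under Keniry2022 lay below its 3.69 to 4.06 under Mulas2019. The p0 libraries, at 3.66 and 3.44, lay between these ranges. Jdp2, a repressor of the AP-1 family, stood at 3.17 and 3.0 at p0, 2.62 to 2.89 under Keniry2022 and 3.43 to 3.71 under Mulas2019, and differed by 0.95 at p10 and 0.81 at p20. Nupr1, a stress-induced chromatin-associated protein, stood at 4.47 and 4.10 at p0, 3.79 to 4.09 under Keniry2022 and 4.53 to 4.79 under Mulas2019, and differed by 0.78 and 0.74. For both genes the p0 libraries lay between the ranges of the methods. Cebpg, a C/EBP factor that pairs with ATF4, stood at 2.87 and 3.13 at p0, 3.15 to 3.28 under Keniry2022 and 3.67 to 3.84 under Mulas2019, and differed by 0.59 and 0.44. Ddit3 shares 81 exonic bases with Gm4189 and Mars.

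**Figure D2:**
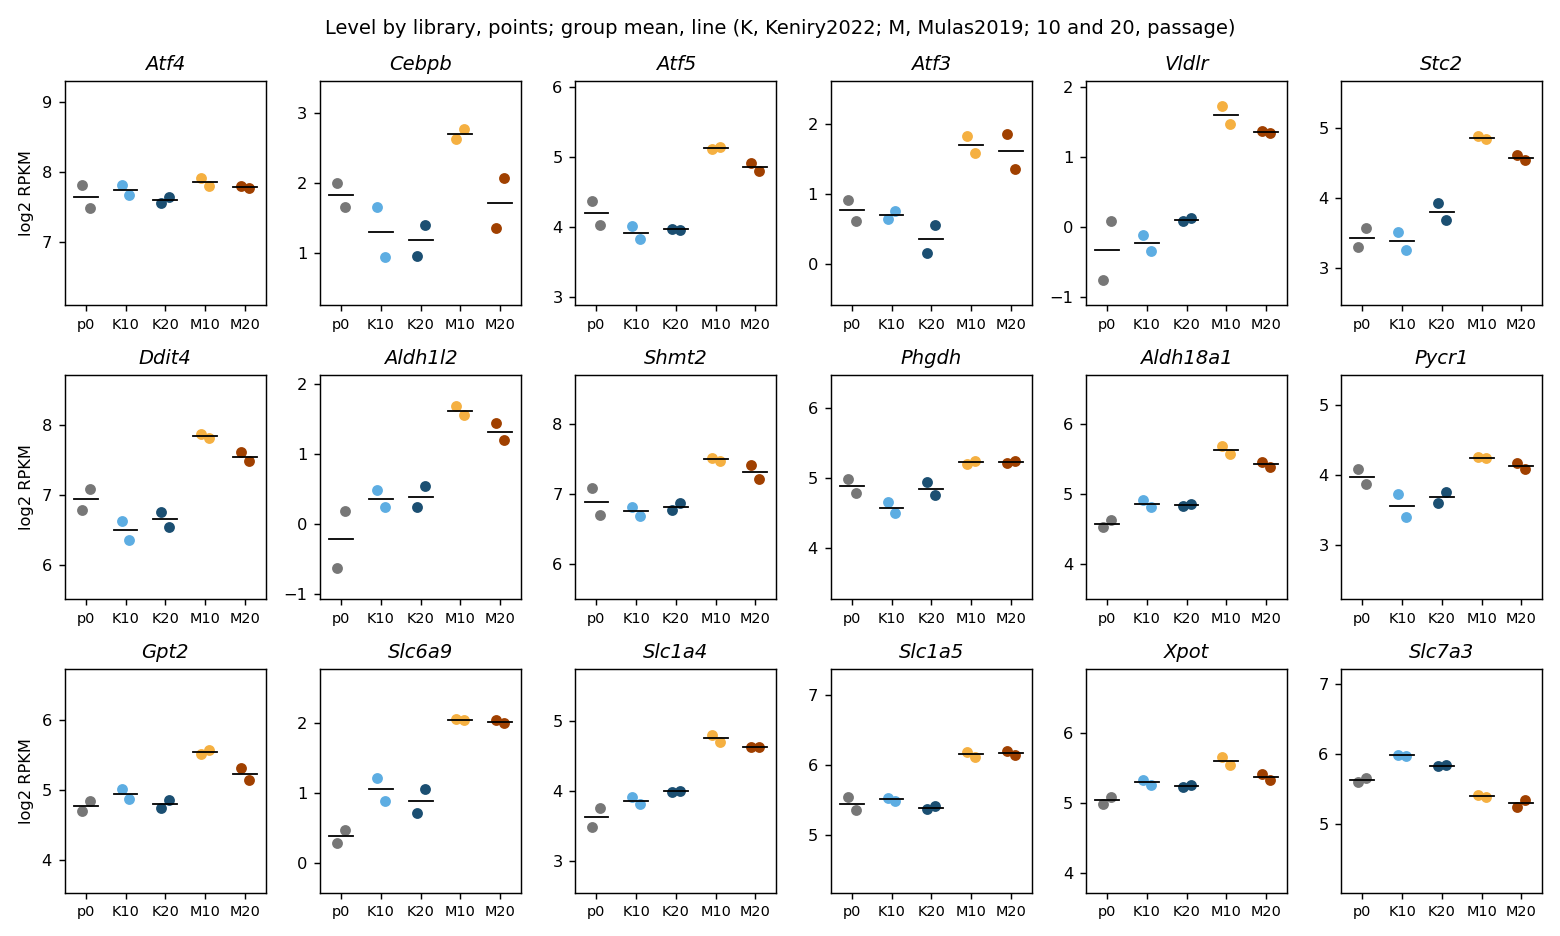
Log2 RPKM in each library (points) and the group mean (line) for the 17 members described library by library and Slc7a3; each axis spans 3.2 log2 units, with K for Keniry2022, M for Mulas2019 and the passage number. Atf4 stays between 7.48 and 7.91 in all 10 libraries, Vldlr moves from -0.34 to 0.13 under Keniry2022 to 1.33 to 1.72 under Mulas2019, and Slc7a3 is the one gene with its Mulas2019 points lowest.

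The stress effectors included the largest differences of the set. Of 8 members, 7 were higher under Mulas2019 at each passage, with medians of 0.79 and 0.71. Vldlr (chr19:27216484-27254231, plus strand) stood at -0.76 and 0.09 log2 RPKM at p0, -0.12 and -0.34 at p10 and 0.08 and 0.13 at p20 under Keniry2022, and 1.72 and 1.47 at p10 and 1.37 and 1.33 at p20 under Mulas2019. All Mulas2019 libraries were above 1.3 and all others below 0.2. The difference was 1.83 (SE 0.14, adjusted p = 0.000118) at p10 and 1.25 (SE 0.14, adjusted p = 0.000929) at p20. It had 143 to 844 reads per library.

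Stc2 (chr11:31357307-31370074, minus strand), a secreted glycoprotein of the stanniocalcin family, stood at 3.30 and 3.56 log2 RPKM at p0, 3.51 and 3.25 at p10 and 3.92 and 3.68 at p20 under Keniry2022, and 4.88 and 4.83 at p10 and 4.61 and 4.54 at p20 under Mulas2019. Its Mulas2019 libraries lay above every other library, and the Keniry2022 libraries were higher at p20 than at p10. The difference between the methods was 1.48 (SE 0.099, adjusted p = 7.87e-05) at p10 and 0.77 (SE 0.099, adjusted p = 0.0014) at p20.

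Ddit4 (chr10:59949675-59951770, minus strand) encodes REDD1, which restrains mTORC1 signalling. Its values were 6.79 and 7.09 log2 RPKM at p0, 6.63 and 6.37 at p10 and 6.76 and 6.55 at p20 under Keniry2022, and 7.87 and 7.81 at p10 and 7.61 and 7.48 at p20 under Mulas2019. The Mulas2019 libraries were again the 4 highest. The difference was 1.34 (SE 0.098, adjusted p = 0.000109) at p10 and 0.89 (SE 0.098, adjusted p = 0.000929) at p20. Ddit4 and Vldlr are also known targets of the hypoxia-inducible factors, and Vegfa, another such target, was higher at both passages as well, by 1.22 and 1.14. What part that pathway has in their levels was not tested.

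Among the feedback genes, Trib3, a pseudokinase that binds ATF4 and CHOP, stood at 4.73 and 4.24 at p0, 4.23 to 4.68 under Keniry2022 and 5.08 to 5.60 under Mulas2019, and differed by 0.97 at p10 and 0.81 at p20. Ppp1r15a, the GADD34 subunit that directs a phosphatase to eIF2, stood at 3.60 and 3.27 at p0, 3.12 to 3.20 under Keniry2022 and 3.33 to 3.83 under Mulas2019, and differed by 0.59 and 0.25. Chac1, which degrades glutathione, differed by 0.61 and 0.65, although its p10 Keniry2022 and p20 Mulas2019 values overlapped (3.88 and 4.14 against 4.09 and 4.25). Sesn2, a leucine sensor upstream of mTORC1, stood at 5.43 and 5.24 at p0, 5.63 to 5.69 under Keniry2022 and 5.77 to 5.88 under Mulas2019, with differences of 0.21 and 0.15. Its p0 libraries were the lowest of the 10. The p20 call of Sesn2 was lost when any 1 of the 4 p20 libraries was left out, and that of Ppp1r15a without p20 Mulas2019 replicate 1 or either p20 Keniry2022 library. Eif4ebp1, an inhibitor of cap-dependent translation with the highest RPKM of the class, was not called: -0.02 at p10 (95% interval -0.14 to 0.10, adjusted p = 0.763) and -0.14 at p20 (-0.26 to -0.03, adjusted p = 0.054). At p20 it was called lower with the filter at log2 above 2 (adjusted p = 0.0479), after median centring (0.0391), by voom (0.0394), in the block with the crossed numbers (0.0389) and without p20 Mulas2019 replicate 1 (0.0333). After quantile normalisation its sign turned, to 0.09 at p10 and 0.03 at p20.

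All 6 enzymes of serine and one-carbon metabolism were higher at p10 (median 0.62), and 5 at p20 (median 0.37). Aldh1l2 (chr10:83487450-83534140, minus strand), the mitochondrial 10-formyltetrahydrofolate dehydrogenase, stood at -0.63 and 0.18 log2 RPKM at p0, 0.48 and 0.24 at p10 and 0.24 and 0.54 at p20 under Keniry2022, and 1.68 and 1.55 at p10 and 1.44 and 1.19 at p20 under Mulas2019. Every Mulas2019 library exceeded every other library. The difference was 1.26 (SE 0.15, adjusted p = 0.000512) at p10 and 0.93 (SE 0.15, adjusted p = 0.0032) at p20. It is a low gene, with 117 to 665 reads, and 1056 of its exonic bases overlap D10Wsu102e on the opposite strand.

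Shmt2 (chr10:127517123-127522444, minus strand), the mitochondrial enzyme that turns serine into glycine, stood at 7.08 and 6.69 log2 RPKM at p0, 6.81 and 6.68 at p10 and 6.76 and 6.87 at p20 under Keniry2022, and 7.51 and 7.47 at p10 and 7.41 and 7.20 at p20 under Mulas2019. Its Mulas2019 range lay just above the range of the other libraries, which reached 7.08 in p0 replicate 1. The difference was 0.74 (SE 0.075, adjusted p = 0.000263) at p10 and 0.49 (SE 0.075, adjusted p = 0.00248) at p20. Phgdh (chr3:98313170-98339990, minus strand), which makes the first step from glycolysis into serine, had values of 4.98 and 4.78 log2 RPKM at p0, 4.65 and 4.49 at p10 and 4.94 and 4.75 at p20 under Keniry2022, and 5.20 and 5.24 at p10 and 5.21 and 5.24 at p20 under Mulas2019. Its Mulas2019 values barely varied, from 5.20 to 5.24, while the Keniry2022 values were higher at p20 than at p10. The difference was 0.65 (SE 0.073, adjusted p = 0.00039) at p10 and 0.38 (SE 0.073, adjusted p = 0.0056) at p20.

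The next steps of serine synthesis were also higher at p10. Psat1, the aminotransferase, stood at 7.17 and 7.18 at p0, 7.01 to 7.17 under Keniry2022 and 7.28 to 7.59 under Mulas2019. It differed by 0.45 at p10 and by 0.14 at p20, where it was not called (95% interval 0.01 to 0.26, adjusted p = 0.0887). Psph, the last step, stood at 4.82 and 4.28 at p0, 4.03 to 4.25 under Keniry2022 and 4.52 to 4.85 under Mulas2019, differed by 0.60 and 0.35 and shares 452 exonic bases with Cct6a. Its p20 call was lost without the filter and without p20 Keniry2022 replicate 2 or p20 Mulas2019 replicate 1. Mthfd2, the mitochondrial dehydrogenase of the folate cycle, stood at 6.02 and 5.85 at p0, 5.90 to 6.19 under Keniry2022 and 6.25 to 6.51 under Mulas2019, and differed by 0.40 and 0.35. Shmt2 shares 32 exonic bases with Ndufa4l2.

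The other amino acid enzymes split into genes that were called and genes that were not. Aldh18a1, Pycr1, Asns, Gpt2 and Pck2 were called higher at each passage, and Cth, Cbs and Got1 at neither. The p20 call of Asns was lost without the filter and without p20 Mulas2019 replicate 1 or either p20 Keniry2022 library, and that of Pycr1 without replicate 1 of either p20 group. Quantile normalisation called Got1 at p10 (0.19, adjusted p = 0.013) and Cth at p20 (0.20, adjusted p = 0.00904). The medians were 0.51 and 0.32. Aldh18a1 (chr19:40550257-40588463, minus strand), the first enzyme of proline synthesis from glutamate, stood at 4.53 and 4.63 log2 RPKM at p0, 4.92 and 4.82 at p10 and 4.84 and 4.87 at p20 under Keniry2022, and 5.69 and 5.58 at p10 and 5.46 and 5.40 at p20 under Mulas2019. The Mulas2019 libraries were the 4 highest, from 5.40 upwards, and no other library exceeded 4.92. The difference was 0.77 (SE 0.055, adjusted p = 9.94e-05) at p10 and 0.57 (SE 0.055, adjusted p = 0.000635) at p20.

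Pycr1 (chr11:120635712-120643769, minus strand), the last enzyme of that route, stood at 4.09 and 3.87 log2 RPKM at p0, 3.72 and 3.41 at p10 and 3.60 and 3.76 at p20 under Keniry2022, and 4.25 and 4.24 at p10 and 4.17 and 4.08 at p20 under Mulas2019. Here p0 replicate 1 lay within the Mulas2019 range, and the Keniry2022 libraries were the lowest. The difference was 0.68 (SE 0.099, adjusted p = 0.00108) at p10 and 0.44 (SE 0.099, adjusted p = 0.0104) at p20. Gpt2 (chr8:85492576-85527560, plus strand), the mitochondrial alanine aminotransferase, stood at 4.70 and 4.85 log2 RPKM at p0, 5.02 and 4.88 at p10 and 4.75 and 4.87 at p20 under Keniry2022, and 5.52 and 5.57 at p10 and 5.32 and 5.15 at p20 under Mulas2019. Its Mulas2019 libraries were the 4 highest. The difference was 0.60 (SE 0.073, adjusted p = 0.00053) at p10 and 0.43 (SE 0.073, adjusted p = 0.00379) at p20.

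Asns, asparagine synthetase and a classical ATF4 target, was already abundant, at 8.06 to 8.38 log2 RPKM in the p0 and Keniry2022 libraries and 8.44 to 8.67 under Mulas2019. Its differences were 0.47 at p10 and 0.22 at p20. Pck2, mitochondrial phosphoenolpyruvate carboxykinase, stood at 5.10 and 4.65 at p0, 4.44 to 4.89 under Keniry2022 and 5.01 to 5.32 under Mulas2019, and differed by 0.54 and 0.57. For the genes not called the 95% intervals bound the difference. For the transsulfuration enzymes they were -0.16 to 0.02 at p10 and -0.02 to 0.16 at p20 for Cth, and -0.03 to 0.25 and -0.04 to 0.24 for Cbs. For Got1, the cytosolic aspartate aminotransferase, they were -0.05 to 0.17 and -0.11 to 0.10. The differences of Cth at p10 (-0.07) and of Got1 at p20 (-0.0046) changed sign after quantile normalisation, to 0.06 and 0.14.

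The carriers included the one member called lower. At p10, 7 of the 8 tested were higher and 1 was lower (median 0.33), and at p20, 4 were higher and 1 was lower (median 0.23). Slc6a9 (chr4:117834506-117875198, plus strand), the glycine transporter GlyT1, stood at 0.29 and 0.47 log2 RPKM at p0, 1.22 and 0.88 at p10 and 0.71 and 1.06 at p20 under Keniry2022, and 2.06 and 2.03 at p10 and 2.03 and 2.0 at p20 under Mulas2019. Its Mulas2019 values were close together, from 2.0 to 2.06, and lay above the rest. The difference was 1.0 (SE 0.14, adjusted p = 0.00102) at p10 and 1.13 (SE 0.14, adjusted p = 0.00133) at p20. Its exons overlap those of Gm17114, Ccdc24 and B4galt2 over 1986 bases, and the share of reads from each cannot be told apart.

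Slc1a4 (chr11:20302180-20332713, minus strand), a carrier of alanine, serine, cysteine and threonine, stood at 3.49 and 3.77 log2 RPKM at p0, 3.91 and 3.82 at p10 and 3.99 and 4.01 at p20 under Keniry2022, and 4.81 and 4.71 at p10 and 4.63 and 4.63 at p20 under Mulas2019. Its Mulas2019 range was clear of all others. The difference was 0.89 (SE 0.054, adjusted p = 7.52e-05) at p10 and 0.63 (SE 0.054, adjusted p = 0.000437) at p20. Slc1a5 (chr7:16781346-16798274, plus strand), the glutamine carrier ASCT2, stood at 5.54 and 5.35 log2 RPKM at p0, 5.53 and 5.49 at p10 and 5.37 and 5.40 at p20 under Keniry2022, and 6.18 and 6.12 at p10 and 6.19 and 6.14 at p20 under Mulas2019. The 4 Mulas2019 values lay within 6.12 to 6.19, and the other 6 libraries did not exceed 5.54. The difference was 0.64 (SE 0.043, adjusted p = 7.87e-05) at p10 and 0.78 (SE 0.043, adjusted p = 0.000218) at p20.

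Slc7a3 (chrX:101079210-101086020, minus strand), a cationic amino acid carrier encoded on the X chromosome, was the member that was lower under Mulas2019. It stood at 5.61 and 5.66 log2 RPKM at p0, 6.0 and 5.97 at p10 and 5.83 and 5.85 at p20 under Keniry2022, and 5.42 and 5.39 at p10 and 5.25 and 5.35 at p20 under Mulas2019. The Mulas2019 libraries were the 4 lowest of the 10 and the Keniry2022 libraries the 4 highest. The difference was -0.58 (SE 0.045, adjusted p = 0.000122) at p10 and -0.54 (SE 0.045, adjusted p = 0.000437) at p20. Slc7a1, which carries the same class of amino acids, ran in the other direction, at 0.37 at p10 and 0.25 at p20, but its p20 value was not called (95% interval 0.03 to 0.48, called in the crossed block, by voom, after quantile normalisation and, at 0.41, without p20 Keniry2022 replicate 2) and its p10 call was lost in 5 of 16 alternatives. Slc7a1 stood at 3.51 and 4.25 at p0, 4.43 to 4.74 under Keniry2022 and 4.75 to 5.10 under Mulas2019, and all libraries of both methods lay above those of p0.

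The large neutral carrier Slc7a5 stood at 5.56 and 5.95 at p0, 6.11 to 6.36 under Keniry2022 and 6.26 to 6.53 under Mulas2019. It differed by 0.20 at p10 and 0.13 at p20 and its heavy chain Slc3a2 by 0.29 and 0.20. The p10 call of Slc7a5 was lost in the model with p0 and without replicate 2 of either p10 group. Slc38a2, the SNAT2 carrier of small neutral amino acids, stood at 5.44 and 5.33 at p0, 5.81 to 5.85 under Keniry2022 and 5.91 to 6.15 under Mulas2019, and differed by 0.28 and 0.10. Slc7a5 and Slc38a2 were not called at p20, other than after quantile normalisation, and the p20 call of Slc3a2 was lost without the filter and without replicate 1 of either p20 group. Slc7a11, the cystine carrier xCT that pairs with the same heavy chain, was the one member that did not pass the filter. It had 16 and 33 reads at p0, 33 to 45 under Keniry2022 and 70 to 86 under Mulas2019, so its Mulas2019 libraries were the 4 highest, at low counts. Fitted with no filter, its difference was 0.91 (SE 0.24, adjusted p = 0.0423) at p10 and 1.09 (SE 0.24, adjusted p = 0.0326) at p20.

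Xpot (chr10:121587380-121626316, minus strand) exports mature tRNAs from the nucleus. It stood at 4.99 and 5.10 log2 RPKM at p0, 5.34 and 5.27 at p10 and 5.23 and 5.27 at p20 under Keniry2022, and 5.66 and 5.54 at p10 and 5.42 and 5.34 at p20 under Mulas2019. The lowest Mulas2019 library and the highest Keniry2022 library were equal at this precision, at 5.34. The difference was 0.30 (SE 0.054, adjusted p = 0.00292) at p10, and at p20 it was 0.13 and not called (95% interval 0.01 to 0.26, adjusted p = 0.0889).

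Between the passages, the difference between the methods was smaller in size at p20 than at p10 in 31 of the 39 members. The share of all features with a smaller difference at p20 was not computed. Over all features, 48.3% were called at p10 and 36.7% at p20. Among those called, the median size of the difference was 0.355 at p10 and 0.321 at p20. No member passed the test of the method by passage interaction, in which no feature at all was called by limma. At an unadjusted p under 0.05 there were 14 members and 1836 of all 11654 features, and voom on the reads worked back from the table called 84 features, Stc2 among them. The interaction of Stc2 was -0.71 (95% interval -1.03 to -0.39, adjusted p = 0.102). With a replicate block, 17 features and no member were called.

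Within Mulas2019, 35 of 39 members had a negative difference of p20 against p10, with a median of -0.18 against 0.01 over all features. Of these, 2 were called lower and none higher, Chac1 at -0.45 (SE 0.092, adjusted p = 0.0461) and Ppp1r15a at -0.38 (SE 0.065, adjusted p = 0.0377), beside 2.47% of all features (0.858% lower and 1.61% higher). Both calls were lost in the model with p0 and without the filter. The call of Chac1 was also lost when any 1 of the 8 libraries was left out. That of Ppp1r15a was lost in 5 of those 8 cases. Voom called 10 members lower, beside 641 of all features called. The replicate block with the crossed numbers called 8 members, beside 493 of all features. For the Keniry2022 passages, 14 members were positive and 25 negative, with a median of -0.05. None was called by limma, beside 0.0343% of all features, or by voom, beside 52 features. At an unadjusted p under 0.05 there were 11 members by limma and 12 by voom, beside 1475 and 1528 of 11654 features. The test of whether the passages differ more under one method is the interaction above.

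**Figure D3:**
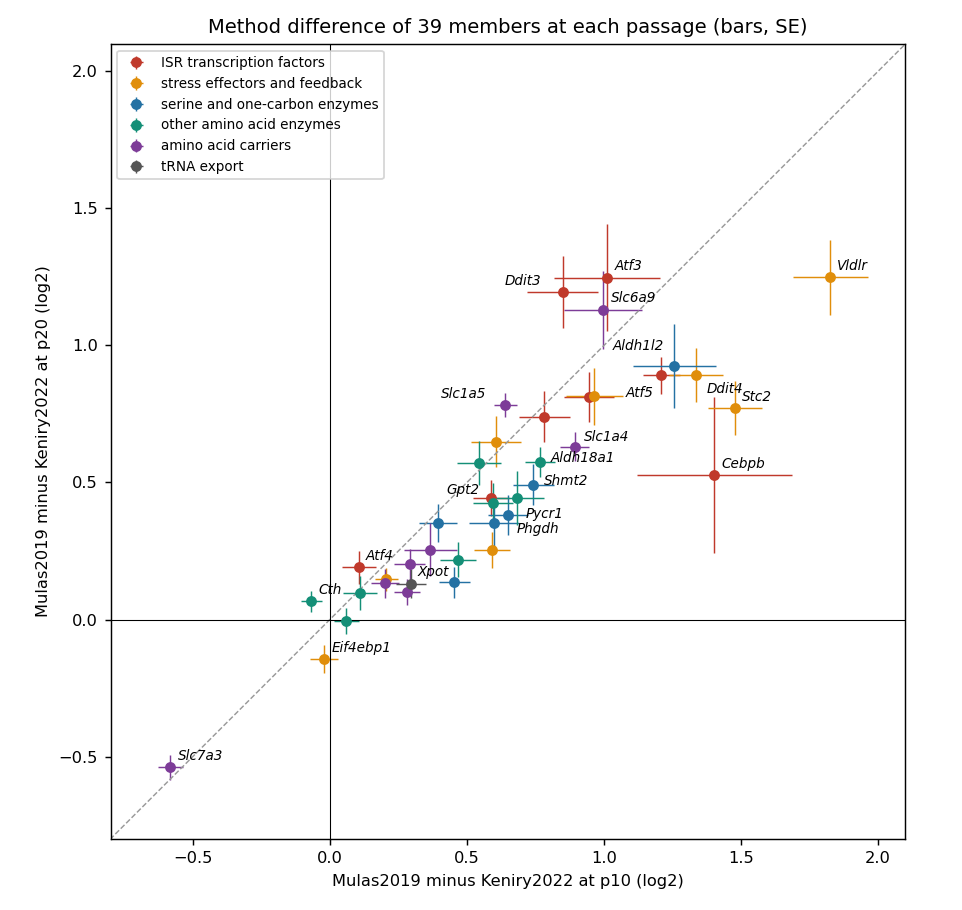
Difference between the methods at p10 (horizontal) and p20 (vertical) for the 39 members tested, in log2 RPKM with SE bars and colours by role class; the dashed line marks equal differences. Most points lie in the upper right below the line, Slc7a3 lies far in the lower left at -0.58 and -0.54, Eif4ebp1 is just inside it at -0.02 and -0.14, and Ddit3, Atf3, Slc6a9 and Slc1a5 are among the points above the line.

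Matched in days of culture, p10 Mulas2019 against p20 Keniry2022, 34 members were higher and 1 was lower, with a median of 0.64, beside 43.4% of all features called. In the model with p0, 27 members (26 higher, 1 lower) were called, beside 6.43% of all features. Atf4 was among those called, at 0.26 (SE 0.061, adjusted p = 0.0106). Chac1 differed more than at either matched passage, at 1.10 (SE 0.092, adjusted p = 0.000349), and so did Trib3, at 1.21 (SE 0.10, adjusted p = 0.000377). These libraries also serve in the passage-matched comparisons, so the values are not independent of them.

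Set against the starting cells, in a model of all 10 libraries, p10 Mulas2019 had 26 members higher and 2 lower than p0, beside 33.0% of 11561 features called (15.7% higher). At p20, 21 were higher and 2 lower, beside 29.3% (14.7% higher and 14.6% lower). The lower genes at each passage were Cth and Slc7a3. The p10 call of Slc7a3 was lost in both replicate blocks (adjusted p = 0.0582 as labelled and 0.0597 crossed), and the p20 call of Cth was not. Without the filter, after quantile normalisation, and whenever a library other than p0 was left out, those 2 calls were lost. The p20 call of Slc7a3 was lost after quantile normalisation and without either p10 Keniry2022 or either p20 Mulas2019 library. The p10 call of Cth was lost without either p10 Mulas2019 library. At p10, Cth differed from p0 by -0.59 (SE 0.13, adjusted p = 0.0187) and Slc7a3 by -0.23 (SE 0.073, adjusted p = 0.0446). For Cth, the libraries of either method ranged from 6.56 to 6.66 log2 RPKM, below the 7.38 and 6.95 of p0. Vldlr (1.93 at p10 and 1.69 at p20), Aldh1l2 (1.84 and 1.54) and Slc6a9 (1.67 and 1.64) stood furthest above p0 among the members that passed the filter. Slc7a11, fitted with no filter, stood 1.70 above p0 at p10 and 1.64 at p20. Atf4, at 0.20 and 0.14, was not called (95% intervals -0.08 to 0.48 and -0.14 to 0.42). It was called after quantile normalisation (0.54 and 0.52) and when p0 replicate 1 was left out (0.37 and 0.31). With p0 replicate 2 left out, its p20 value was -0.03.

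Under Keniry2022, no member was called against p0 at either passage, by limma or by voom, beside 0.199% of all features at each (0.0432% higher and 0.156% lower at p10, 0.0519% and 0.147% at p20). Unadjusted, 17 members had a p under 0.05 at each passage, beside 2860 of 11561 features at p10 and 3237 at p20. The median differences of the members were -0.05 and -0.06. By value, carriers such as Slc7a1 and Slc38a2 were above p0 (Slc7a1 0.84 and 0.70, Slc38a2 0.44 and 0.47), while Ddit3 (-0.52 and -0.82) was below it. These comparisons rest on the p0 pair, whose log2 values differed with an SD of 0.611 across features. The absence of calls therefore does not show that levels were unchanged from p0. Quantile normalisation called 1 member at each passage, beside 24 of all features at p10 and 29 at p20. Without p0 replicate 2, the median difference of the members was -0.11 at p10 Keniry2022 and -0.14 at p20. Without p0 replicate 1 it was 0.08 and 0.02. For Mulas2019, leaving out a library of the group compared leaves a single library there, and calls then fell over all features as well as among the members. By library, the median difference of the members from the p0 mean was 0.61 and 0.59 at p10 Mulas2019 (replicates 1 and 2). It was 0.43 and 0.34 at p20 Mulas2019. The 4 comparisons share the p0 libraries.

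Upstream of ATF4, a list of 12 genes (eIF2 kinases, eIF2, eIF2B and Impact) ran mostly the other way. At p10, 2 were higher and 6 lower (median -0.14), and at p20 none was higher and the same 6 were lower (median -0.15). The 2 higher at p10 were Eif2ak2 and Impact, which was named after its values were seen. No gene of an eIF2 or eIF2B subunit on the list was called higher. Of all features, 23.5% were higher and 24.8% lower at p10, and 18.2% and 18.6% at p20. Eif2s2 (-0.43 and -0.41) and Eif2s1 (-0.29 and -0.36) encode the beta and alpha subunits of eIF2, and Eif2b2 (-0.39 and -0.32) and Eif2b5 (-0.39 and -0.25) subunits of its exchange factor. Those 4 genes were lower under Mulas2019 at both passages. The 4 kinases, named after their values were seen, showed differences at p10 of -0.0031 for Eif2ak1 (HRI), 0.21 for Eif2ak2 (PKR, the only kinase called, adjusted p = 0.0391), 0.16 for Eif2ak3 (PERK) and 0.16 for Eif2ak4 (GCN2), and none was called at p20. The values at p20 were -0.04, 0.10, 0.09 and 0.07. Kinase activity is not read from mRNA.

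The ATF6 and XBP1 arm of the unfolded protein response, which acts beside PERK in the endoplasmic reticulum, was called in both directions. Of 16 genes, 4 were higher and 5 lower at each passage, beside 23.5% and 24.8% of all features at p10 and 18.2% and 18.6% at p20, with medians of 0.0011 and -0.05. Sel1l (0.54 at p10 and 0.28 at p20), Herpud1 (0.51 and 0.63) and Edem1 (0.36 and 0.15), all of the pathway that removes misfolded proteins from the endoplasmic reticulum, were higher, as was the sensor Atf6 (0.29 and 0.19). Hspa5, the chaperone BiP and the usual marker of this arm, was named after its values were seen. It was lower, at -0.14 (SE 0.040, adjusted p = 0.0226) at p10 and -0.25 (SE 0.040, adjusted p = 0.00307) at p20.

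A list of 13 other reported ATF4 or CHOP targets had 11 tested. Of these, 7 were higher and 1 lower at p10 (median 0.87), and 7 were higher at p20 (median 0.38). Among all features, 23.5% were higher and 24.8% lower at p10, and 18.2% and 18.6% at p20. Fgf21, a stress-induced hormone, differed by 1.43 (SE 0.40, adjusted p = 0.0178) at p10 and 2.58 (SE 0.40, adjusted p = 0.00249) at p20. It had 5 to 19 reads in the p0 and Keniry2022 libraries and 30 to 37 under Mulas2019 and passed the filter through the Mulas2019 libraries alone. Vegfa, the angiogenic growth factor, differed by 1.22 and 1.14, Ndrg1 by 1.42 and 0.53, and Ero1l, an oxidase of the endoplasmic reticulum, by 1.09 and 0.38. Those 3 genes are also known targets of the hypoxia-inducible factors.

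Paralogues of the members did not share one direction. Of 35 genes listed, 29 were tested, and 14 were higher and 6 lower at p10 (median 0.19), 10 and 5 at p20 (median 0.14). The shares of all features were 23.5% higher and 24.8% lower at p10, and 18.2% and 18.6% at p20. Stc1 differed by 2.70 at p10 and 1.0 at p20 beside its relative Stc2, and Lrp8 by 1.0 and 0.57 beside Vldlr, with which it shares ligands. Both passed the filter through the Mulas2019 libraries alone. Got1l1 differed by 0.76 and 0.86, unlike Got1. Trib1 was lower at p10, at -0.64 (SE 0.13, adjusted p = 0.00423), whereas Trib3 was higher. Its p20 value was -0.30 and was not called.

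**Figure D4:**
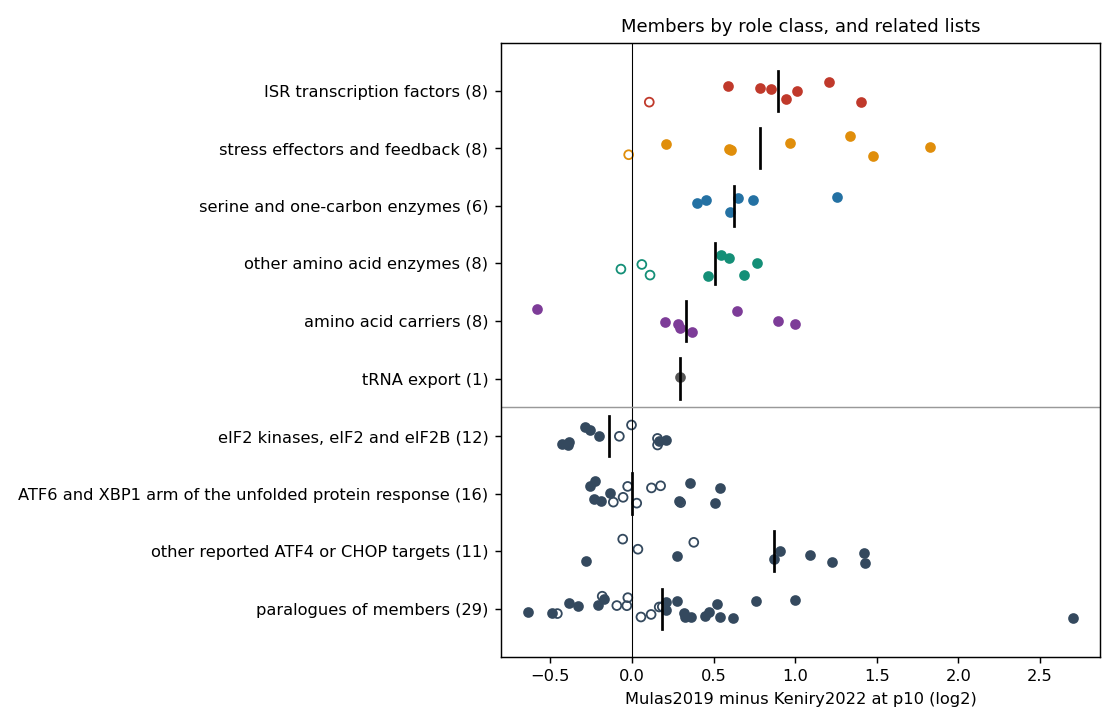
Difference between the methods at p10 in log2 RPKM for each tested gene (points; filled where called, open where not) of the 6 role classes and, under the grey line, of the related lists, with the number tested in parentheses and the median as a vertical bar. Class medians run from 0.90 for the transcription factors to 0.30 for tRNA export, while the eIF2 list and the ATF6 and XBP1 list are centred at -0.14 and 0.0011.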

How the data were processed

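The RNA-seq of 10 libraries (5 groups of 2) had been sequenced as 75 bp single-end reads, trimmed with trim_galore, aligned to mm10 with HISAT2 and quantified in SeqMonk according to the study's methods, while the submitters' notes name bcl2fastq and TopHat2 2.0.12. No annotation release, strand setting or treatment of reads with several positions was found in the labels or the study's methods. The authors deposited 1 table of log2 values for 25965 features. Its columns are named logCPM, but the values scale with feature length and are log2 RPKM, with 0.9 reads entered where a feature had none. Whole reads and library totals (24053996 to 30236823) were worked back from the values, for 100% of features within a tolerance of 0.01. Where the length behind a value had to be searched for (15662 features), the reads may be wrong by a factor. Read counts are given for scale, and error from counting is not the error between replicates. No column of the table was left out.

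Groups came from the labels. limma 3.58.1 in R 4.3.3 was fitted to the log2 values with an intensity trend, with two-sided tests and Benjamini-Hochberg adjustment over all features tested (log2 RPKM above 0 in at least 50% of the libraries of the model). The comparisons of the methods and passages used the 8 libraries of p10 and p20 in 4 groups (2 for the pooled comparison), and those with p0 used all 10. The p0 pair was left out of the former because earlier results of these data had shown it to differ most. That choice was thus made with the data known, and it raised the number of calls. Intervals are 95% intervals of that model. On simulated data for p10 (11623 features), 79 of 99 features changed by 0.5 on the log2 scale, 100 of 100 changed by 1 and 8 of 11424 unchanged features were called. The simulation gave all features the same dispersion, drew libraries independently of line and changed only features with enough expected reads. In the data, 48.3% of features were called at p10. These rates are therefore not those of the real comparisons.

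The members and lists were chosen with earlier results of these data known. In each class of 6 or more, the 3 tested members with the largest difference at p10 are given library by library, with Atf4 and Xpot added by name and Slc7a3 added after its values were seen. Of each related list, the 4 genes with the largest differences at p10 among those called are named, and others only where said to be chosen after their values were seen. Members in the text without a p are described as called from the adjusted p of the same model.

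Replicate numbers stand for the lines, which the study's methods give as the source of the 2 libraries of a group. Deviations from the group means correlated between groups at 0.171 to 0.630, except with p20 Keniry2022, where the values were -0.118, -0.500, -0.434 and -0.698. The replicate block was therefore an alternative, with the numbers as labelled and, added after seeing the data, with those of p20 Keniry2022 crossed. Other alternatives were quantile normalisation, median centring, a filter at log2 above 2, no filter, voom on the reads, the model of 5 groups, and leaving out each library.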

Additional observations from a re-analysis of the deposited data

Results flagged for a closer look

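In 2 members, 1 Keniry2022 library stood apart from the other 3 by Dixon's test at its 95% critical value for 4 values, and in both it was p20 replicate 1. For Slc7a1 it stood at 4.43 log2 RPKM against 4.70 to 4.74, a gap of 0.879 of the range. For Slc7a11 it stood at -3.26 against -2.91 to -2.85, a gap of 0.846 of the range, at 33 reads against 44 to 45. Each member was examined within each method, 80 groups in all, and chance flags about 1 in 20 such groups. This library is 1 of the pair whose Y-linked reads go against its replicate number. Without it, the difference of Slc7a1 at p20 was 0.099 (adjusted p = 0.362) and was not called, and without p20 Keniry2022 replicate 2 it was 0.41 (adjusted p = 0.0106) and was called.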

How the results depend on the processing

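Among the differences of the 39 members at p10, 292 of 307 values under other settings and 306 of 312 with a library left out kept their direction and their side of the threshold. At p20 these were 269 of 307 and 288 of 312. Of the 17 genes given by library, 109 of 114 and 140 of 170 did so for p10 Mulas2019 against p0, and 104 of 114 and 123 of 170 for p20. For many of these values the direction could not turn. Leaving out a library of a group that is not compared leaves the difference as it was. So do the filters, both blocks and the model of 5 groups, where only the call can change. The causes of the changes below were not tested. After quantile normalisation the sign turned for Eif4ebp1 (0.0877 at p10 and 0.0307 at p20), Cth (0.0569 at p10) and Got1 (0.1354 at p20). With 1 library left out it turned for Eif4ebp1 at p10 (range -0.0559 to 0.0151, the latter without p10 Keniry2022 replicate 1) and Got1 at p20 (range -0.0493 to 0.0401, 0.0401 without p20 Keniry2022 replicate 2, 0.0366 without p20 Mulas2019 replicate 2). In p20 Mulas2019 against p0 it turned for Atf4 (range -0.0314 to 0.3053, -0.0314 without p0 replicate 2) and Cebpb (range -0.4811 to 0.2384, 0.0528 without p0 replicate 1, 0.2384 without p20 Mulas2019 replicate 1).

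The model of 5 groups called 986 features at p10 (5631 without p0), 249 at p20 (4280), 743 matched in days (5060) and 2225 pooled (6000), and 12 members at p20 in place of 29. It called 0 features for p20 against p10 of either method and 0 members within Mulas2019 (288 features and 2 members without p0).

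Without the filter, p10 Mulas2019 against p0 had 2429 features called (3816 with it) and p20 1975 (3386). Within Mulas2019, p20 against p10 then had 14 features and 0 members, within Keniry2022 2 features (4 with it), p20 Keniry2022 against p0 45 (23 with it) and the interaction 4 (0 with it). With the filter at log2 above 2, the comparisons of p10 and p20 Keniry2022 with p0 had 0 features each and the interaction had 2. Median centring left 2 features between the Keniry2022 passages and quantile normalisation 7. Quantile normalisation called 1 member in each Keniry2022 comparison with p0. Under median centring, 15% of the calls of p20 Keniry2022 against p0 were higher (26.1% in the deposited scaling) and 51.3% of those of p20 against p10 Mulas2019 (65.3%).

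Voom called 641 features and 10 members for p20 against p10 Mulas2019, 52 features for Keniry2022, 84 features and 1 member for the interaction, and 0 features for both Keniry2022 comparisons with p0. The replicate block called 17 features for the interaction, 8 for p20 against p10 Keniry2022, 0 for p10 Keniry2022 against p0 and 1 for p20. With the numbers of p20 Keniry2022 crossed, the block called 493 features and 8 members for p20 against p10 Mulas2019, 11 features for Keniry2022 and 0 for both Keniry2022 comparisons with p0. The labelled block moved no other count of calls by over 1.5 times.

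With each library left out in turn, 3826 to 5679 features and 32 to 34 members were called at p10. At p20 these were 2243 to 4162 (2776 without p20 Keniry2022 replicate 1, 2243 without p20 Mulas2019 replicate 1) and 23 to 29. The interaction had 0 to 22 features. Between passages, Keniry2022 had 0 to 16 features and Mulas2019 0 to 306 features and 0 to 2 members. Against p0, p10 Keniry2022 had 0 to 7395 features and 0 to 27 members and p20 Keniry2022 0 to 7641 and 0 to 29, with the highest values without p0 replicate 2. Against p0, p10 Mulas2019 had 11 to 8250 features and 1 to 35 members and p20 Mulas2019 1 to 8175 and 0 to 30. A library left alone in its group is assumed to vary like the others. With 2 libraries a group, and under 100 reads in the lowest libraries of Atf3, Cebpb and Slc7a11, small differences of the low genes are not detectable.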
